A study of Mus musculus with 12 samples.

Results

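The comparison described here is the interaction of phenylephrine with knockdown of lincRNA-p21 in cultured neonatal mouse cardiomyocytes, taken as a difference of differences. For each gene it is the log2 difference between the lincRNA-p21 GapmeR and the negative-control GapmeR in phenylephrine, minus the same difference in PBS. It used all 12 of the 12 libraries of the series, 3 in each of 4 groups, and 21799 of the 55416 genes in the deposited table, namely those with a mean normalised read count of at least 1. Phenylephrine (PE), an alpha1-adrenergic agonist used to induce hypertrophy, was given for 24 h, and the other libraries had PBS. A GapmeR is an antisense oligonucleotide with a DNA core that directs RNase H to cut its target RNA. Every cell group received a GapmeR, so the groups were PBS with the negative-control GapmeR, PBS with the lincRNA-p21 GapmeR, PE with the negative-control GapmeR, and PE with the lincRNA-p21 GapmeR. The groups are called PBS control, PBS knockdown, PE control and PE knockdown below. A knockdown difference is thus a difference between the GapmeR labels. Loss of lincRNA-p21 and other effects of its GapmeR cannot be told apart in this design. The labels give no dose, no sequence and no count of GapmeRs per target, and name no separate cultures or animals, so p-values measure the spread between these libraries, which may be technical.

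LincRNA-p21, annotated as Trp53cor1, is a long noncoding RNA next to Cdkn1a and a known target of p53. Alpha1-adrenergic receptors signal through Gq and phospholipase C to protein kinase C, calcium and MAP kinases, and in cardiomyocytes this raises fetal genes such as the natriuretic peptides. Interferon-stimulated genes are switched on when interferons bind their receptors or by sensors of viral nucleic acid, and the integrated stress response acts through the transcription factor ATF4. An interaction above 0 means that the ratio of PE to PBS was higher in knockdown than in control cells, and equally that the ratio of knockdown to control was higher in PE than in PBS.

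Recovered reads in genes ran from 21325485 to 22139681 per library. Replicate 2 of PBS control, replicate 2 of PBS knockdown and replicate 1 of PE knockdown stood apart from the other libraries of their groups, so results are also given without these 3. Mitochondrially encoded genes held 4.33% to 10.7% of the reads of a library, and the highest and lowest shares were in 2 of these 3 libraries. All 12 cardiomyocyte markers were detected, with summed normalised read counts of 599210 to 1.24e+06 per library, and summed fibroblast markers ran from 38300 to 86860. Fewer cells of a type and less RNA per cell cannot be told apart in bulk RNA.

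Trp53cor1 itself showed the knockdown in both arms and no detectable interaction. Its normalised read counts were 59.8, 70.6 and 63.2 in PBS control, 12.7, 22.6 and 10.1 in PBS knockdown, 56.0, 34.0 and 34.7 in PE control, and 8.56, 9.97 and 8.93 in PE knockdown. All knockdown libraries lay below all control libraries. The log2 interaction was 0.06 ± 0.42 (limma, adjusted p = 0.979; errors of log2 values are limma standard errors throughout), with a 95% confidence interval of -0.81 to 0.94. Single libraries held 8 to 69 reads of Trp53cor1, and the antisense gene AC167363.1 overlaps it, so the interval is wide and reads of the pair may not have been told apart.

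Across all genes, 12 had an interaction past an adjusted p of 0.05 (limma, Benjamini-Hochberg over 21799 genes), which is 0.055% of the genes tested. All 12 had an interaction above 0, and 0 lay below 0. At an unadjusted p under 0.05, limma gave 986 genes above 0 and 1157 below. The median interaction of all genes was -0.01 and the middle quartiles ran from -0.25 to 0.27, against a median standard error of 0.28. For comparison, PE against PBS called 25.4% of genes in control cells and 27.4% in knockdown cells, and the knockdown called 4.57% in PBS and 11.7% in PE.

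The count of calls depended on single libraries and on the test with its adjustment. Without PBS control replicates 1 or 3, 6 and 3 genes were called above 0, and without PBS knockdown replicate 3, 5 genes. Without PE control replicates 2 or 3, 4 and 5 genes were called above 0, and without PE knockdown replicate 2, 7 genes. Without PBS knockdown replicate 2 or PE control replicate 1, 19 and 22 genes were called above 0, and the number below 0 was 2 without any one of replicates 1 or 2 of PBS knockdown or replicate 1 of PE knockdown. DESeq2 called 62 genes above 0 and 62 below, edgeR called 13 and 0, and limma without the 3 libraries that stood apart called 74 and 69. As shares of all genes, DESeq2 called 0.569%, edgeR 0.0596% and limma without the 3 libraries 0.656%. Each of these 3 fits kept the same 12 genes. The fit without the 3 libraries has smaller groups, and dropping the libraries least like their groups lowers the spread by the choice itself. Its larger number of calls is therefore not separate support.

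The 12 genes were Trib3, Ifit3b, Iigp1, Zdhhc23, Rsad2, Ifit3, Ifi204, Cxcl10, Igfbp5, Irgm2, Gbp2 and Dtx3l, with log2 interactions from 0.84 to 2.08. Most are genes known to be induced by interferons, and the others are the stress gene Trib3, the palmitoyltransferase Zdhhc23 and the growth-factor binding protein Igfbp5. In all 12, the PE knockdown libraries lay above all PE control libraries, which held in one direction or the other for 30.5% of all genes. The PBS groups did not overlap in 4 of the 12, against 22.0% of all genes. PE knockdown held the highest 3 of the 12 libraries in 8 genes (5.91% of all genes), and PE control held the lowest 3 in 7 genes (3.01%). These shares describe how the called genes look and use the libraries that called them.

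**Figure D1:**
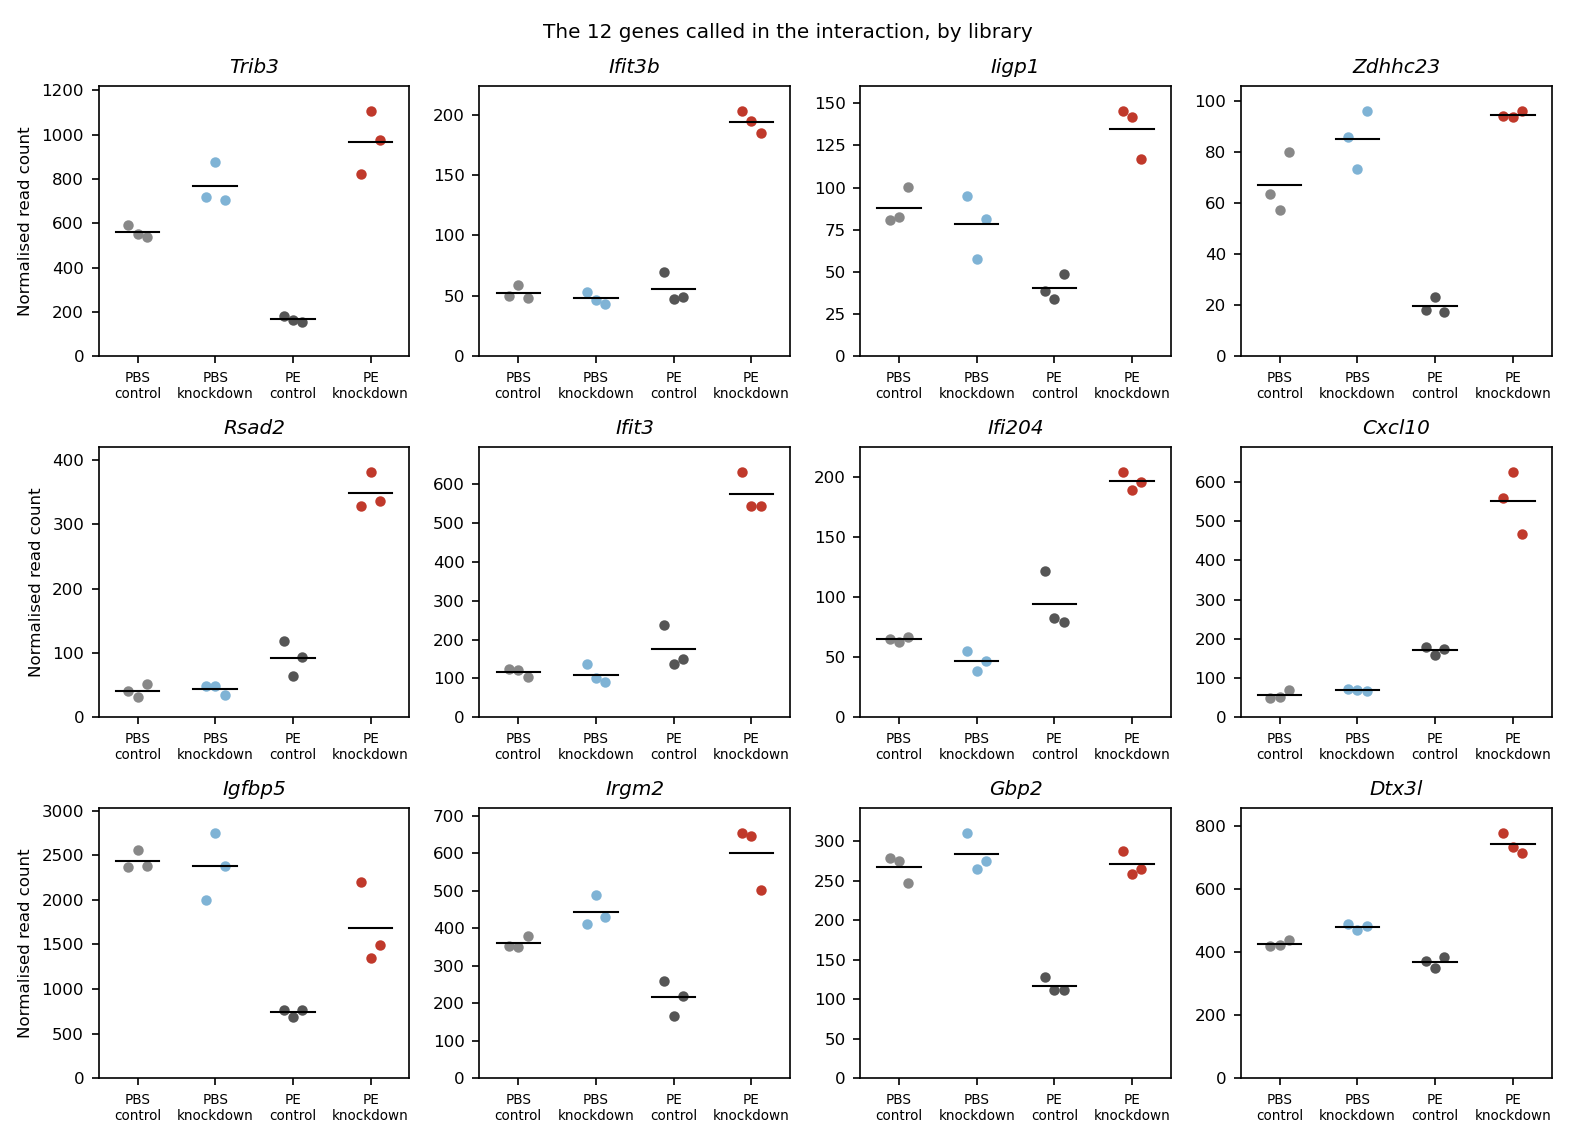
Normalised read count (linear axis from 0) of the 12 genes called in the interaction, with 1 point per library and a line at the mean of the 3 libraries of a group. In every panel the PE knockdown libraries lie above the PE control libraries, as for Trib3 with 822 to 1108 against 156 to 180.

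The 12 genes differed in the form of the interaction. PE responses in control and in knockdown cells had opposite signs in 5 genes, the same sign but a smaller size in knockdown in 2, and the same sign but a larger size in knockdown in 5. Over all genes these shares were 27.0%, 34.8% and 38.2%. PE in control cells lowered 6 of the 12 and raised 3 (limma; 12.8% and 12.6% of all genes), and PE in knockdown cells raised 8 and lowered 1 (13.4% and 14.0%). The knockdown raised all 12 in PE (4.57% of all genes, with 7.14% lowered) and 1, Trib3, in PBS (1.36%, with 3.21% lowered). Each of these comparisons shares libraries with the interaction, so their counts only show its form.

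**Figure D2:**
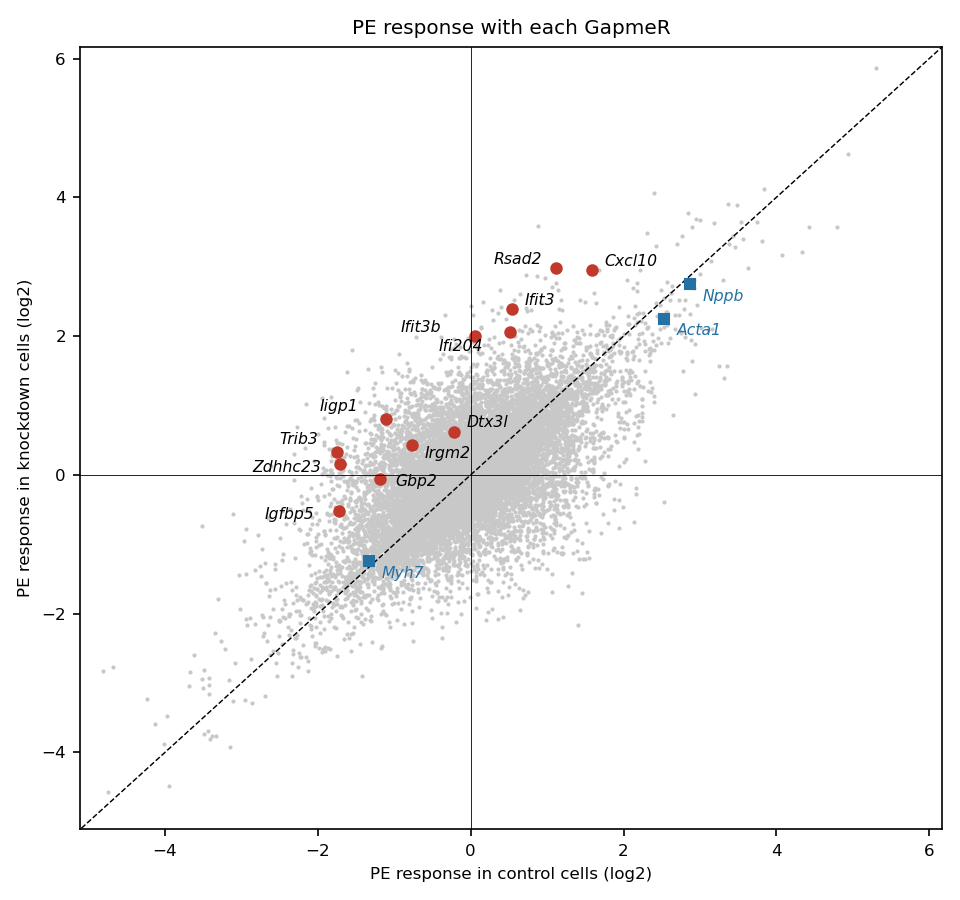
Log2 response to PE in control cells (horizontal) and in knockdown cells (vertical), with 1 grey point per gene tested, red circles for the 12 called genes and blue squares for 3 hypertrophy genes. The dashed line marks equal responses. The 12 genes lie above the line, at 0.84 to 2.08 log2 units, and Nppb, at 2.87 and 2.75, lies close to it.

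Trib3, a pseudokinase of the ATF4 stress response that binds AKT, had the largest interaction of the 12 (ENSMUSG00000032715.10, GRCm38 chromosome 2, 152337422 to 152344032, minus strand). Its normalised read counts were 591, 552 and 539 in PBS control, 721, 878 and 704 in PBS knockdown, 180, 164 and 156 in PE control, and 822, 1108 and 974 in PE knockdown. PE control was far below the other 3 groups, and the PBS groups did not overlap, with knockdown the higher. PE lowered Trib3 3.37-fold in control cells (log2 -1.75, adjusted p = 2.9e-09, limma), while in knockdown cells the PE response was 0.33 with an adjusted p of 0.051. The interaction was 2.08 ± 0.17 (limma, adjusted p = 6.2e-06), and it passed the threshold in all 12 fits that left out 1 library each. It was 2.30 in the fit without the 3 libraries that stood apart. The other tested Tribbles genes, Trib1 and Trib2, had interactions of -0.30 and -0.29, and neither was called.

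Zdhhc23, a DHHC-type palmitoyltransferase, had a similar form (chromosome 16, 43965033 to 43979791, minus strand). Its counts were 63.6, 57.3 and 80.2 in PBS control, 86.1, 73.2 and 96.3 in PBS knockdown, 18.3, 23.4 and 17.4 in PE control, and 94.2, 93.7 and 96.3 in PE knockdown. PE control was again the low group, and the PE knockdown libraries lay within or at the top of the PBS knockdown range. PE lowered it 3.40-fold in control cells, and the interaction was 1.87 ± 0.28 (limma, adjusted p = 0.011). The lowest library held 16 reads, and 11 of the 12 fits with 1 library left out called it. Of the 20 DHHC genes tested, Zdhhc23 was the only one called, and their median interaction was -0.04. Its neighbour Ccdc191, 718 bases away, had an interaction of 0.93 ± 0.40 that was not called (limma, adjusted p = 0.453).

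Igfbp5, a secreted protein that binds insulin-like growth factors, was lowered by PE in both arms, and less so in knockdown cells (chromosome 1, 72857932 to 72874884, minus strand). Its counts were 2365, 2558 and 2384 in PBS control, 1995, 2754 and 2375 in PBS knockdown, 760, 685 and 770 in PE control, and 2198, 1348 and 1495 in PE knockdown. The PBS groups overlapped and the PE groups did not, and the highest PE knockdown library was replicate 1, one of the 3 that stood apart. The PE response was -1.72 in control and -0.52 in knockdown cells, and the interaction was 1.20 ± 0.21 (limma, adjusted p = 0.026). The interaction was 1.07 without the 3 libraries (limma, adjusted p = 9.6e-05), and 6 of 12 fits with 1 library left out called it. With the replicate number as a block it was no longer called (limma, adjusted p = 0.060). Igfbp2, its neighbour on the chromosome, had an interaction of -0.53, and of the 6 IGFBP genes tested only Igfbp5 was called. Summed fibroblast markers were 81577 to 86860 in PBS control, 72886 to 86642 in PBS knockdown, 46710 to 50770 in PE control and 38300 to 41897 in PE knockdown. They were thus lower in PE than in PBS, and in PE lower in knockdown than in control cells. Their part in the result was not tested.

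The remaining 9 genes are induced by interferons in many cell types. Of the 10 called genes with a RefSeq promoter of 250 bases before to 50 after the start (build GRCm38.p6), 6 held the core of an interferon response element, which is GAAA, any 2 bases and GAAA, on either strand. They were Cxcl10, Irgm2, Rsad2, Ifit3, Ifit3b and Gbp2, while 3.44% of 32851 promoters held it. The stretch around the match is printed for the 5 genes where it lies outside annotated exons, 5′ to 3′ on the gene's strand, to show how these promoters compare around it. Capitals mark the match or its reverse complement.
Cxcl10: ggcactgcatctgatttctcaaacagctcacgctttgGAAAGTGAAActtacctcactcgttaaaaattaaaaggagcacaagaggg
Irgm2: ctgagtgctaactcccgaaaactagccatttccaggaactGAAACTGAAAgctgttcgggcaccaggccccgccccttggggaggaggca
Rsad2: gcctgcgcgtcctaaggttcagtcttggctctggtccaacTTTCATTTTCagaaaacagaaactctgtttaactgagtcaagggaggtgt
Ifit3: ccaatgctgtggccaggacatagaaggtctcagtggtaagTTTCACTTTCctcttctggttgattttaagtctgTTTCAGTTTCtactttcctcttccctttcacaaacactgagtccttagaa
Ifit3b: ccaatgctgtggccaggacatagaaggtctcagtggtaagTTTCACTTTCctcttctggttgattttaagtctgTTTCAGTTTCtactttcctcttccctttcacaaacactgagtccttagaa
The stretches are chr5:92349053-92349139 (minus strand) for Cxcl10, chr11:58214873-58214962 (plus) for Irgm2, chr12:26456523-26456612 (minus) for Rsad2, chr19:34583333-34583456 (plus) for Ifit3 and chr19:34607729-34607852 (plus) for Ifit3b. Ifit3 and Ifit3b carry 2 matches each, and their stretches are identical over 124 of 124 bases. The AP-1 motif TGANTCA was in 5 of the 10 promoters (7.81% of all), TGATGNAA, a C/EBP-ATF composite, in 1, that of Trib3 (3.97% of all), and the CRE TGACGTCA in 0 (1.79% of all). A match of letters is not a site of binding.

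Ifit3 and Ifit3b, which encode tetratricopeptide proteins that act against viruses, moved in the same form. Ifit3 (chromosome 19, 34583531 to 34588731) had counts of 125, 123 and 104 in PBS control, 136, 102 and 90.8 in PBS knockdown, 238, 138 and 151 in PE control, and 633, 545 and 544 in PE knockdown. Ifit3b (chromosome 19, 34607970 to 34613401) had 50.3, 59.3 and 48.1, then 53.5, 47.0 and 43.1, then 70.0, 47.8 and 48.8, and 203, 194 and 185 in the same order of groups. In both genes PE knockdown stood above all other libraries, and the PBS groups overlapped. The interactions were 1.85 ± 0.26 for Ifit3 and 1.94 ± 0.26 for Ifit3b (limma, adjusted p = 0.0083 and 0.0067), and both were called in all 12 fits with 1 library left out. The PE response of Ifit3 was 0.54 in control and 2.39 in knockdown cells on the log2 scale, both called, and that of Ifit3b 0.06 (not called) and 2.00. The genes are close copies and how reads that match both were counted is not stated in the labels, so their values may not be separate measurements.

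Rsad2, the antiviral enzyme viperin, and Cxcl10, a chemokine that attracts T cells, rose with PE in both arms and more in knockdown cells. Rsad2 (chromosome 12, 26442746 to 26456452, minus strand) had counts of 40.8, 31.7 and 51.9 in PBS control, 49.0, 48.8 and 33.9 in PBS knockdown, 119, 64.8 and 93.4 in PE control, and 329, 382 and 336 in PE knockdown. Cxcl10 (chromosome 5, 92346638 to 92348889, minus strand) had 49.3, 52.1 and 68.9, then 72.5, 68.7 and 67.8, then 179, 158 and 175, and 559, 626 and 468. In both, the PE control libraries lay above all PBS libraries and PE knockdown above all others. PE raised Rsad2 2.22-fold in control and 7.94-fold in knockdown cells, an interaction of 1.86 ± 0.32 (limma, adjusted p = 0.026). It raised Cxcl10 3.00-fold and 7.90-fold, an interaction of 1.37 ± 0.22 (limma, adjusted p = 0.020). Of the fits with 1 library left out, 5 of 12 called Rsad2 and 7 of 12 called Cxcl10. Cxcl10 overlaps Art3, whose values are higher and whose interaction was -0.16, so reads of the pair may not have been told apart. The median interaction of the 9 CXC chemokine genes tested was 0.03, and the other 8 were not called.

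Iigp1, Irgm2 and Gbp2 encode interferon-inducible GTPases that take part in defence against intracellular pathogens, and PE lowered all 3 in control cells. Iigp1 (chromosome 18) had counts of 80.6, 82.8 and 100.0 in PBS control, 95.2, 57.8 and 81.6 in PBS knockdown, 38.8, 34.0 and 48.8 in PE control, and 146, 142 and 117 in PE knockdown. Irgm2 (chromosome 11, 58199618 to 58222782) had 352, 351 and 380, then 413, 490 and 430, then 261, 166 and 220, and 655, 645 and 501. Gbp2 (chromosome 3, 142620602 to 142638008) had 279, 275 and 247, then 311, 265 and 275, then 128, 112 and 112, and 288, 259 and 265. In each gene PE control held the 3 lowest libraries. In Iigp1 and Irgm2 the PE knockdown libraries were also the highest, whereas those of Gbp2 overlapped both PBS groups. The PE response of Iigp1 went from -1.11 in control to 0.80 in knockdown cells and that of Irgm2 from -0.76 to 0.43, all 4 called, and that of Gbp2 from -1.18 to -0.06, the latter not called. The interactions were 1.91 ± 0.29, 1.19 ± 0.21 and 1.12 ± 0.18 (limma, adjusted p = 0.011, 0.033 and 0.015), called in 10, 3 and 7 of the 12 fits with 1 library left out. Irgm2 was also not called with the replicate block (limma, adjusted p = 0.064) or with a pseudocount of 0.1, and it overlaps Igtp, a GTPase gene with an interaction of 1.15 (limma, adjusted p = 0.084).

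Ifi204, a p200-family protein that senses DNA, and Dtx3l, a ubiquitin ligase that partners with PARP9, complete the 12. Ifi204 (chromosome 1, 173747293 to 173766943, minus strand) had counts of 65.5, 62.4 and 67.0 in PBS control, 55.3, 38.9 and 46.8 in PBS knockdown, 122, 82.9 and 79.2 in PE control, and 204, 189 and 196 in PE knockdown. Dtx3l (chromosome 16, 35926511 to 35939151, minus strand) had 420, 421 and 439, then 489, 469 and 484, then 371, 349 and 383, and 779, 733 and 714. PE knockdown held the 3 highest libraries in both, and in Ifi204 the PBS knockdown libraries were the lowest 3. The interactions were 1.55 ± 0.26 and 0.84 ± 0.14 (limma, adjusted p = 0.026 and 0.020), called in 3 and 6 of the 12 fits with 1 library left out. Dtx3l overlaps Parp9, whose interaction was 0.57 ± 0.18 (limma, adjusted p = 0.346).

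**Figure D3:**
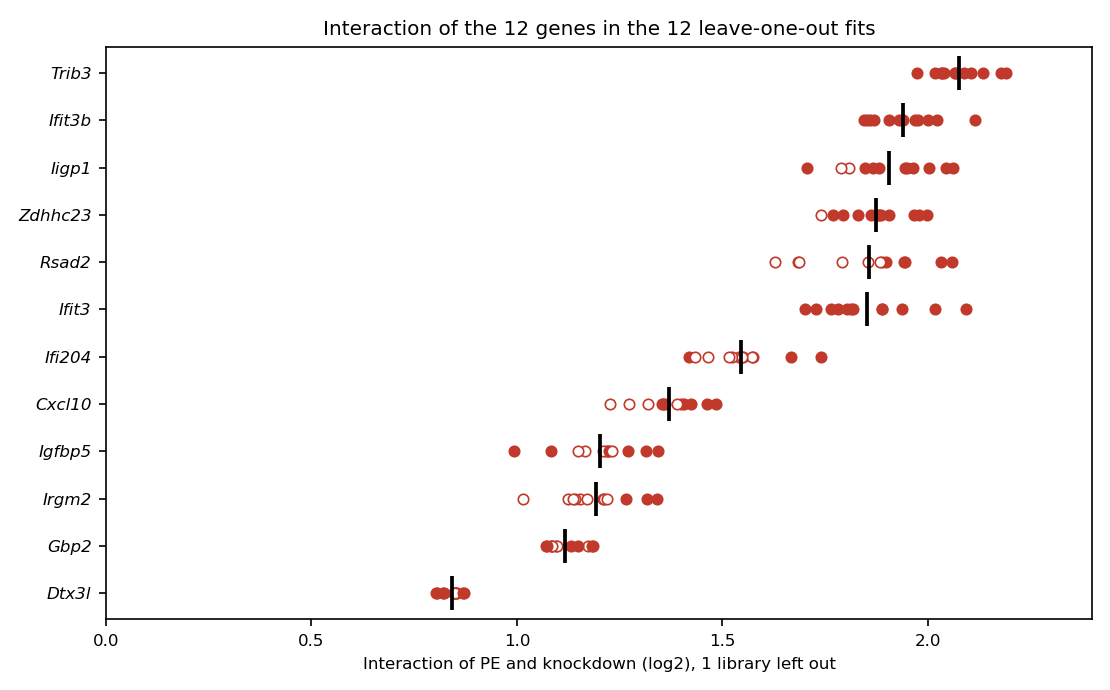
Log2 interaction of the 12 genes in the 12 limma fits that each leave out 1 library, with 1 circle per fit. Filled circles passed an adjusted p of 0.05, open circles did not, and the black bar is the value with all libraries. All circles lie above 0, and Trib3, Ifit3 and Ifit3b are filled in every fit.

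The families of these genes, grouped by symbol after values were seen, lay above 0 in most interferon-inducible groups. All 9 guanylate-binding protein genes tested had an interaction above 0 (49.5% of all genes), with a median of 0.91 and Gbp2 alone called. All 9 p200 genes lay above 0 with a median of 1.24, all 6 IFIT genes with a median of 1.02, and all 6 immunity-related GTPase genes with a median of 1.04. Many are low in these libraries, such as Gbp8 with mean counts of 0.689 to 3.59 per group, or near-identical to a neighbour, and most did not pass the test.

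The list of interferon-stimulated genes had 27 members tested, of which 4 were called above 0 and 0 below, and 25 lay above 0 where 49.5% of all genes did. Their median interaction was 0.91, against -0.01 over all genes. The median PE response of the list was 0.31 in control and 1.37 in knockdown cells, and the median knockdown difference was 0.31 in PBS and 1.35 in PE. Beside Ifit3, Ifit3b, Rsad2 and Cxcl10, the antiviral sensor gene Ddx58 had mean counts of 1038, 1160, 1044 and 1815 in PBS control, PBS knockdown, PE control and PE knockdown, with an interaction of 0.65 (limma, adjusted p = 0.13). Zbp1, a sensor of left-handed nucleic acids, had an interaction of 1.97 (limma, adjusted p = 0.12) at counts of 12.9, 9.69, 22.3 and 64.0. The members below 0 were Bst2 and Oas1a, at -0.33 and -0.22. When the 3 libraries that stood apart were left out, 11 of the 27 were called above 0 and 0 below (0.339% and 0.317% of all genes), and the median was 1.15. Among them were Ddx58, Cxcl10, Oasl2, Rsad2, Rtp4, Ifit1, Ifit3 and Ifit3b. The interferon list was chosen with results of these samples known, so its direction is not independent evidence.

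Interferon genes themselves were nearly undetected. Of 21 in the table, 16 had no read in any library, and the totals over 3 libraries were 5, 7, 2 and 5 reads in PBS control, PBS knockdown, PE control and PE knockdown, with at most 3 reads of any 1 gene in a library. Markers of leukocytes, which express many interferon-stimulated genes, had summed counts of 2678 to 3327 in PBS control, 2619 to 2782 in PBS knockdown, 3707 to 4276 in PE control and 3461 to 4091 in PE knockdown. Their PE groups overlapped, 0 of the 14 tested were called (0.055% of all genes), and their median interaction was 0.07.

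The list of ATF4 targets had 26 members tested, of which Trib3 alone was called above 0 and 0 below. Of the 26, 21 lay above 0 (49.5% of all genes), with a median of 0.36. Atf4 itself, the transcription factor of the response, had mean counts of 5545, 6175, 6358 and 10191 in PBS control, PBS knockdown, PE control and PE knockdown, and an interaction of 0.51 that was not called (limma, adjusted p = 0.33). Ddit3, the factor CHOP, had 473, 602, 403 and 850 and an interaction of 0.73 (limma, adjusted p = 0.066). Asns, which makes asparagine, had 1997, 2000, 1331 and 2157 and an interaction of 0.68 (limma, adjusted p = 0.12). In these 3 genes PE knockdown was the highest group mean. Without the 3 libraries that stood apart, Trib3, Asns, Mthfd2, Ddit3 and Slc3a2 were called above 0 and 0 below (0.339% and 0.317% of all genes). The ATF4 list was also chosen with results of these samples known, so its direction is not independent evidence. The list of chaperones and sensors of protein folding in the endoplasmic reticulum, 18 genes, had a median of 0.09 and 0 called.

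**Figure D4:**
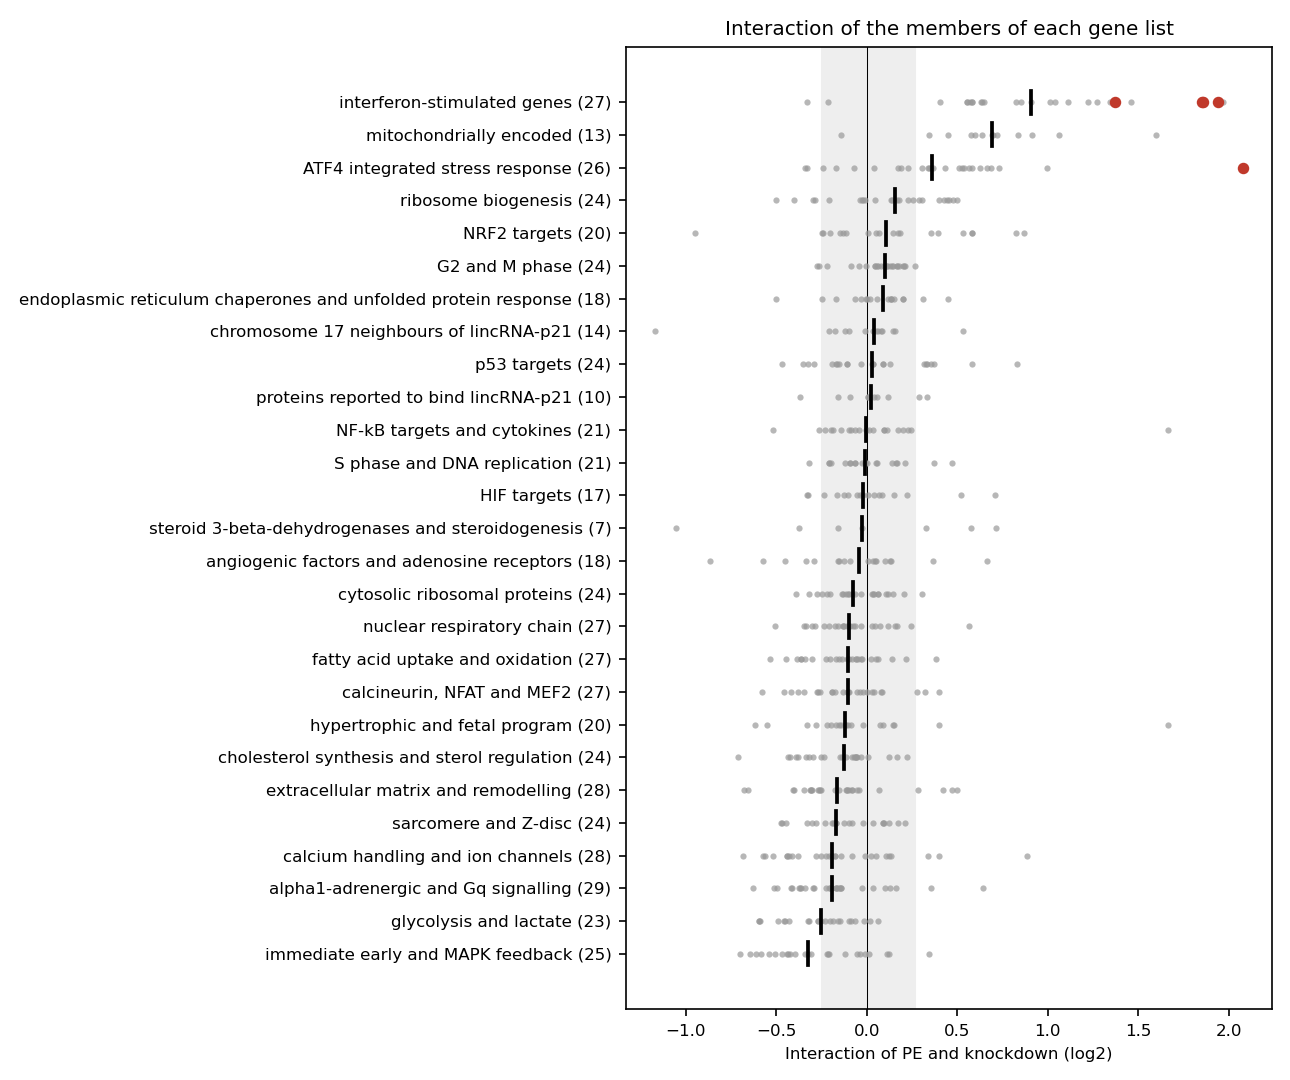
Log2 interaction of each tested member (points) of 27 pathway lists, with the number tested in brackets, a black bar at each list's median and red points for called members. The grey band spans the middle quartiles of all genes, -0.25 to 0.27. The interferon list has its median at 0.91 and the mitochondrially encoded genes at 0.69, which is 0.13 without the 3 libraries that stood apart.

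No interaction was detected for 5 hypertrophy genes named in every case, Nppb, Acta1, Nppa, Myh6 and Myh7. The PE response of each had the same sign in both arms. PE raised Nppb, Acta1, Nppa and Myh6. It lowered Myh7, by a log2 response of -1.33 in control and -1.25 in knockdown cells (limma, both called). Nppb, the brain natriuretic peptide, had counts of 2544, 3721 and 2709 in PBS control, 2335, 1781 and 1855 in PBS knockdown, 21092, 22932 and 20555 in PE control, and 13453, 13145 and 13254 in PE knockdown. The knockdown libraries lay below the control libraries in PBS and in PE alike, and all PE libraries above all PBS libraries. PE raised Nppb by 2.87 in control and 2.75 in knockdown cells on the log2 scale, and the interaction was -0.12 ± 0.18 (limma, adjusted p = 0.876) with a 95% confidence interval of -0.50 to 0.27. The interval thus leaves room for a PE response up to 0.50 log2 units smaller or 0.27 larger in knockdown cells.

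Acta1, skeletal alpha-actin, a classic hypertrophy gene, had counts of 177, 185 and 191 in PBS control, 172, 159 and 166 in PBS knockdown, 1153, 1088 and 975 in PE control, and 716, 820 and 847 in PE knockdown. The knockdown libraries lay below the control libraries in both arms, with a wider gap in PE. The interaction was -0.28 ± 0.15 (limma, adjusted p = 0.579; interval -0.60 to 0.04). Of the other genes named in every case, the atrial natriuretic peptide gene Nppa had an interaction of 0.14 (interval -0.18 to 0.46), the alpha myosin heavy chain gene Myh6 -0.18 (-0.78 to 0.43) and the beta myosin heavy chain gene Myh7 0.09 (-0.27 to 0.44). The calcineurin target Rcan1 had -0.11 (-0.39 to 0.18) and the p53 target Cdkn1a 0.03 (-0.33 to 0.39). None of these passed the limma test.

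The list of the hypertrophic and fetal program, 20 genes, had 0 called in either direction, 14 below 0 (50.5% of all genes) and a median of -0.12. Its member with the smallest p was Ccn2, a matricellular growth factor that PE raised in both arms. Ccn2 counts were 3674, 3453 and 3585 in PBS control, 3356, 3333 and 3001 in PBS knockdown, 18588, 18878 and 17421 in PE control, and 10538, 11322 and 12034 in PE knockdown. The PE groups were well separated and the PBS groups only just so. The PE response was 2.36 in control and 1.81 in knockdown cells, an interaction of -0.55 that did not pass the test (limma, adjusted p = 0.143).

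Lists of the signalling upstream of hypertrophy had more members below than above 0, with 0 called, where 50.5% of all genes lay below 0. Lists of other functions also leaned this way, such as cholesterol synthesis with 20 of 24 below 0 and fatty acid oxidation with 21 of 27. Ribosome biogenesis, with 9 of 24 below 0, did not. The immediate early and MAP kinase feedback genes, 25 in all, had 21 below 0 and a median of -0.32. Their median PE response was 1.05 in control and 0.70 in knockdown cells. Fosl2, an AP-1 subunit, had the smallest p of that list, with counts of 1277, 1146 and 1301 in PBS control, 1078, 1575 and 1270 in PBS knockdown, 3157, 3165 and 2895 in PE control, and 2298, 2142 and 2161 in PE knockdown. Its PBS groups overlapped, PE control was the highest group, and the interaction was -0.54 (limma, adjusted p = 0.318). The growth factor response gene Egr1, with an interaction of -0.51, was called below 0 in the fit without the 3 libraries that stood apart.

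The alpha1-adrenergic and Gq list, 29 genes, had 23 below 0 and a median of -0.19, and Prkca, the kinase PKC alpha, had the smallest p with an interaction of -0.36. The calcineurin, NFAT and MEF2 list, 27 genes, had 20 below 0 and a median of -0.11. Ppp3ca, the catalytic subunit of calcineurin, had an interaction of 0.40 that was not called (limma, adjusted p = 0.409). The knockdown difference of Ppp3ca was -2.62 in PBS and -2.22 in PE on the log2 scale, and that of Prkca -1.42 and -1.78 (limma, all 4 called). Both genes were thus lower with the lincRNA-p21 GapmeR in each arm, without a detected interaction. Whether this came from loss of lincRNA-p21 was not tested.

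Glucose metabolism and the matrix gave the members nearest to a call below 0. The glycolysis and lactate list, 23 genes, had 21 below 0 (50.5% of all genes) and a median of -0.25. Slc2a4, the insulin-responsive glucose transporter GLUT4, had counts of 1739, 1675 and 1735 in PBS control, 1560, 1731 and 1558 in PBS knockdown, 1187, 1174 and 1171 in PE control, and 698, 785 and 726 in PE knockdown. The PE groups did not overlap and the PBS groups did. The interaction of Slc2a4 was -0.59 (limma, adjusted p = 0.102). The extracellular matrix list, 28 genes, had 23 below 0 and a median of -0.16, and Tnc, the matrix protein tenascin C, had 1966, 1851 and 1904, then 1968, 2397 and 2098, then 12553, 10934 and 10868, and 8447, 8024 and 7698. All PE libraries of Tnc lay above all PBS libraries, PE knockdown below PE control, and the interaction was -0.68 (limma, adjusted p = 0.084). Slc2a4, Tnc and Ccn1 were called below 0 without the 3 libraries that stood apart (0.317% of all genes).

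The 13 mitochondrially encoded genes had 12 above 0 (49.5% of all genes), a median of 0.69 and 0 called. Mt-Nd4l, a subunit of respiratory complex I, had the smallest p, with an interaction of 1.60 (limma, adjusted p = 0.247). Its mean count was only 19.4, and it overlaps mt-Nd4, with a mean of 152784, so reads of the pair may not have been told apart. Without the 3 libraries that stood apart, which include the libraries with the highest and lowest mitochondrial shares, the median was 0.13. The 27 nuclear genes of the respiratory chain had a median of -0.10 and 0 called, with cytochrome c, Cycs, at 0.56.

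The remaining pathway lists had 0 called members, and their medians lay between -0.19 and 0.15. Each is given with its member of smallest p. The sarcomere list (24 genes, median -0.17) was led by Csrp3 at -0.47, and the calcium handling list (28 genes, median -0.19) by Jph2, a protein that holds the dyad together, at -0.68 (limma, adjusted p = 0.207). The cholesterol list (24 genes, median -0.13) was led by Insig1 at -0.44, fatty acid oxidation (27 genes, median -0.10) by Ppargc1a at 0.38, and ribosome biogenesis (24 genes, median 0.15) by Polr1a at -0.50. The p53 targets (24 genes, median 0.03) were led by Gadd45a at 0.83 and the NRF2 targets (20 genes, median 0.10) by Osgin1 at 0.83, and Osgin1 was called above 0 without the 3 libraries that stood apart. The NF-kB list (21 genes, median 0.00) was led by Lif at -0.52 and the angiogenic list (18 genes, median -0.04) by Pdgfa at -0.57. The HIF targets (17 genes, median -0.02) were led by Ero1l at 0.52 and the steroidogenesis list (7 genes, median -0.02) by Fdx1 at -0.37. The cytosolic ribosomal proteins (24 genes, median -0.08) were led by Rps6 at 0.30, the G2 and M phase list (24 genes, median 0.10) by Aurka at -0.27 and the S phase list (21 genes, median -0.01) by Mcm7 at 0.37. The genes next to lincRNA-p21 on chromosome 17 (14 genes, median 0.04) were led by Fgd2 at -1.17 ± 0.73, with mean counts of only 1.60 to 4.24 per group. The proteins reported to bind lincRNA-p21 (10 genes, median 0.02) were led by Elavl1 at -0.37. In all, 2 of the 27 pathway lists held a called gene, the interferon and ATF4 lists. With 0.055% of all genes called, most lists of these sizes would hold none.

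Markers of 8 cell types had 0 of 84 tested members called. As 0.055% of all genes were called, a set of this size would seldom hold one, so the 0 tells little. The 12 cardiomyocyte markers had a median interaction of -0.02 and the 12 fibroblast markers one of -0.06. All 10 epicardial markers lay below 0 (50.5% of all genes) with a median of -0.30, led by Tbx18 at -0.48 (limma, adjusted p = 0.180). The 11 smooth muscle and pericyte markers had a median of -0.28. Summed epicardial markers ran from 12452 to 14597 in PE control and 11487 to 12902 in PE knockdown, which overlap. The sums of 5 other types, among them the fibroblast markers given with Igfbp5, did not overlap in PE and were lower in knockdown. Cardiomyocyte markers summed to 924538 to 1.24e+06 in PE control and 759857 to 867412 in PE knockdown, and smooth muscle and pericyte markers to 115362 to 133139 and 83594 to 97857. Endothelial markers summed to 12256 to 13840 and 10230 to 12117. Schwann cell markers summed to 111 to 122 and 90.3 to 98.5. In PBS, cardiomyocyte markers summed to 727449 to 821881 in control and 599210 to 660908 in knockdown. Smooth muscle and pericyte markers summed there to 60711 to 78574 and 56022 to 59661, and Schwann cell markers to 218 to 253 and 149 to 191. The sums of these types were thus lower in knockdown without overlap in PBS as well as in PE. Endothelial sums, 6604 to 7665 and 6270 to 8507, overlapped in PBS, as did the fibroblast sums. The part of these differences in the interactions was not tested. A sum follows its most abundant members. The median PE response of the smooth muscle and pericyte markers was -0.41 in control and -0.87 in knockdown cells. Their sums were nonetheless higher in PE than in PBS.

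The interaction also varied with the genomic span of a gene, taken over genes with a mean count of at least 50. Its median was -0.03 for genes under 10 kb, 0.00 for 10 to 30 kb, -0.01 for 30 to 100 kb, -0.10 for 100 to 200 kb and -0.23 for the 619 genes over 200 kb. Of these longest genes, 80.9% had an interaction below 0. The shares in the shorter bins, from the shortest up, were 54.2%, 49.2%, 52.1% and 68.7%. Genes over 200 kb had a median knockdown difference of -0.31 in PBS and -0.55 in PE. Their median PE response was -0.06 in control and -0.27 in knockdown cells. Without the 3 libraries that stood apart the median interaction of genes over 200 kb was -0.22. Genes are not independent replicates, and no test was made of this description.

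**Figure D5:**
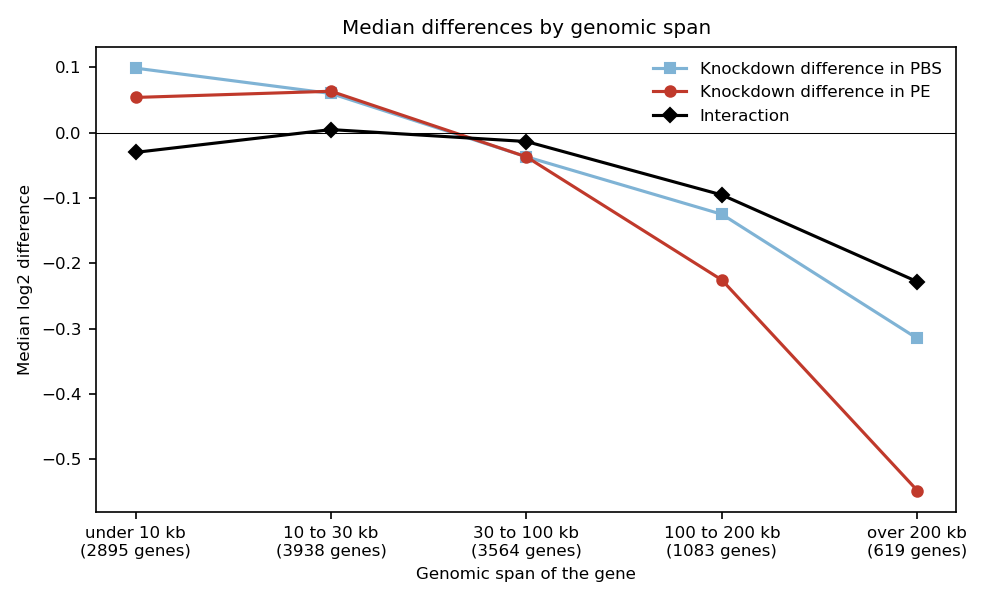
Median log2 knockdown difference in PBS (squares) and in PE (circles) and median log2 interaction (diamonds) by genomic span, with the number of genes in brackets and a mean count of at least 50. For genes over 200 kb the knockdown difference is -0.31 in PBS and -0.55 in PE, and the interaction is -0.23.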

How the data were processed

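Polyadenylated RNA taken with TRIzol was sequenced in paired-end libraries by BGI, per the labels. The submitters' processing notes name GRCm38.p6, STAR, SAMtools and featureCounts. For these tools the version, annotation, strand setting and handling of multi-mapping reads are not given in the sources used here. What the authors deposited is a normalised signal, the reads per gene over a size factor of each library. Dividing each column by its step gave whole numbers for 100% of values (tolerance 0.001).

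Genes whose mean value reached 1 were fitted on log2 of the value plus 1 with limma 3.58.1 (R 4.3.3), with 4 group means and a trended prior. Fold changes on this scale understate the change of low genes, and folds in the text are ratios of group means. P-values are two-sided and Benjamini-Hochberg adjusted over 21799 genes, or over 34127 without a filter and 14053 with the CPM filter. DESeq2 applied its own default filter before adjustment, so its counts of calls differ from the others in adjustment as well as in model. With 3 libraries per group, calls are limited to differences above their spread. The script was tested on simulated data. Alternatives on recovered reads used edgeR 4.0.16, DESeq2 1.42.0 and limma-voom. Others changed the pseudocount, filter, scaling, weights, replicate block or libraries, and the fits without 3 libraries were added after seeing the data. A library was taken to stand apart where its chi-square with both others of its group was over 3 times theirs. Replicate counts differed beyond sampling noise in every pair (chi-square over its degrees of freedom, 2.31 to 48.0), so none is a library deposited again.

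Gene symbols and coordinates came from GENCODE release M21, joined by identifier without its version (52135 of 55416; the other 3281 hold 0.195% of the signal). Genes named were Trp53cor1, Nppa, Nppb, Myh6, Myh7, Acta1, Rcan1 and Cdkn1a, the called genes with the 15 highest and 15 lowest interactions, given a mean log2 CPM of 1 or more and no predicted gene model (all 12 called genes passed), and, of each list, up to 4 called members or else the member with the smallest p. Other genes named were chosen after their values were seen. Members and lists were chosen with earlier results of these data known.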

Additional observations from a re-analysis of the deposited data

Results flagged for a closer look

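In 12 genes the response to PE differed between control and knockdown cells by the test of the difference itself, the limma interaction over 12 libraries. The log2 interactions were 2.08 for Trib3, 1.94 for Ifit3b, 1.91 for Iigp1, 1.87 for Zdhhc23, 1.86 for Rsad2 and 1.85 for Ifit3. They were 1.55 for Ifi204, 1.37 for Cxcl10, 1.20 for Igfbp5, 1.19 for Irgm2, 1.12 for Gbp2 and 0.84 for Dtx3l. Without the 3 libraries that stood apart, the values were 2.30, 1.81, 1.69, 1.88, 2.16 and 1.71 for the first 6 genes, and 1.42, 1.40, 1.07, 1.22, 1.00 and 0.80 for the other 6, all called by limma. That fit dropped the libraries least like the rest of their groups, which lowers the spread within groups by the choice itself. Its calls of these genes are thus not separate support. Groups of 3 libraries are too small for a test of single outlying libraries.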

How the results depend on the processing

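The 12 interactions stayed above 0 in all alternatives run. The number of genes called above 0 was 11 with a pseudocount of 0.1, 16 with 10, 12 without a filter, 13 with a CPM filter and 12 with limma-voom. It was 13 with edgeR under either set of factors, 13 with values scaled to the same total, 19 with the same total without mitochondrial genes (which moved the median of all genes to 0.06), and 11 at a log2 interaction of at least 1 in size. None of these called a gene below 0. DESeq2 called 62 above and 62 below 0, and sample quality weights 273 above and 295 below. Leaving out the 3 libraries that stood apart, limma called 74 above and 69 below and edgeR 113 above and 107 below. Leaving out 1 library gave 3 to 22 genes above 0 and 0 to 2 below. The cause of these differences was not tested.

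The replicate block called 12 above 0 and 0 below, of which 10 were the same genes, and Igfbp5 and Irgm2 were lost. Residuals of same-numbered libraries correlated between -0.435 and 0.409, with 4 of 18 pairs over 0.1, so the numbers were not taken to pair libraries.

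Named genes whose interaction changed sign all lay within 0.12 of 0 with all 12 libraries. Trp53cor1 (0.06) gave -0.084 and -0.085 with edgeR, -0.091 with DESeq2, and -0.17 to 0.38 over the fits with 1 library left out. Cdkn1a (0.03) gave -0.11 with quality weights, -0.18 without the 3 libraries by limma and by edgeR, and -0.10 to 0.12 over the left-out libraries. Over the left-out libraries the log2 interaction of Nppb (-0.12) ran from -0.28 to 0.0032 and that of Myh7 (0.09) from -0.0058 to 0.20. The fewest reads of a called gene in a library were 16, for Zdhhc23.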
